A study of Saccharomyces cerevisiae with 16 samples.

Results

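The 10 genes described here encode enzymes that remove hydrogen peroxide, organic peroxides and superoxide from budding yeast: the peroxiredoxins *TSA1*, *TSA2* and *AHP1*, the thioredoxin *TRX2* and its reductase *TRR1*, the catalases *CTT1* and *CTA1*, the superoxide dismutases *SOD1* and *SOD2*, and the glutathione peroxidase *GPX2*. They were chosen by name for their function, not by their values, and are 10 of the 7126 genes in the deposited tables. RNA-seq libraries were made from WT cells (the BY4741 strain) and from *lsm1∆* cells, a deletion of *LSM1* in the same background. Both strains grew in YPD to mid-logarithmic phase, were sampled untreated and received 200 mM hydroxyurea (HU) for 1, 2 or 4 h, which gives 16 libraries, 2 replicates of each of 8 conditions. The deletion was studied in a single strain, and nothing in the labels says that replicates came from separate cultures, while the study's methods call them technical. The p-values below therefore measure the spread between these libraries, which may be technical.

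HU inhibits ribonucleotide reductase, so that cells run short of the deoxynucleotides needed to copy DNA. Lsm1 is a subunit of the cytoplasmic Lsm complex, which binds mRNAs whose poly(A) tail has been shortened and promotes removal of the cap before decay. Peroxiredoxins reduce peroxides at a reactive cysteine and are themselves reduced by thioredoxin, which thioredoxin reductase regenerates with NADPH, whereas catalases split hydrogen peroxide without a reductant and superoxide dismutases turn superoxide into hydrogen peroxide. In yeast the transcription factors Yap1 and Skn7 activate many of these genes when peroxide oxidizes the cell, and Msn2 and Msn4 activate *CTT1* and other genes of the general stress response.

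The abundance of *LSM1* was 111 to 181 FPKM in the 8 WT libraries and at most 0.761 FPKM in the 8 *lsm1∆* libraries, so the strain labels held in every library. *HUG1*, a gene of the DNA damage response that HU induces, went from 47.0 and 56.4 FPKM in untreated WT cells to 16453 and 17486 FPKM at 4 h. In *lsm1∆* cells it went from 95.7 and 81.2 to 10832 and 10181 FPKM. *RNR3*, the other treatment control, went from 2.61 and 3.05 to 142 and 161 FPKM at 4 h in WT. In *lsm1∆* it went from 4.67 and 6.37 to 373 and 349 FPKM. At 4 h *HUG1* was thus lower and *RNR3* higher in *lsm1∆* than in WT. FPKM, the fragments of a gene divided by its length and by the total mapped, is a share of the library, so a fall in every other mRNA and a rise in the named mRNA cannot be told apart. The median FPKM over all genes ranged from 28.8 to 40.0 between libraries. Values are given as deposited (the deposited scale) and, where it matters, after each library was centred on its median log2(FPKM + 1) (the centred scale). All 10 mRNAs passed the filter (2 or more libraries with 1 FPKM or more) and were part of the 6977 genes fitted with limma. A gene is termed called where the Benjamini-Hochberg adjusted p was under 0.05, with no minimum fold change, and log2 ratios are on the log2(FPKM + 1) scale, which understates changes in the least abundant genes.

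The DNA upstream of the 10 genes was read from the sacCer3 reference (R64), in which all 10 lie at the positions the deposited tables list, and none overlaps another gene of those tables. *TRX2* (YGR209C) lies on chromosome VII from 912913 to 913227, *GPX2* (YBR244W) on II from 707528 to 708016 and *CTT1* (YGR088W) on VII from 654634 to 656322. *TSA1* (YML028W) is on XIII from 220138 to 220728, *TSA2* (YDR453C) on IV from 1365072 to 1365662 and *AHP1* (YLR109W) on XII from 368781 to 369311. *TRR1* (YDR353W) is on IV from 1183299 to 1184258, *CTA1* (YDR256C) on IV from 968133 to 969680, *SOD1* (YJR104C) on X from 622550 to 623014 and *SOD2* (YHR008C) on VIII from 122889 to 123590. A pair of short motifs was searched on both strands of the 500 bases before each start codon: TTACTAA, a site that Yap1 is known to bind, and AGGGG, the stress response element that Msn2 and Msn4 bind. They read TTAGTAA and CCCCT on the other strand, and neither can lie within the other. A match is a description of the letters and does not show that a factor binds there.

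A Yap1 site was present before 7 of the 10 genes, against 11.8% of 6000 such upstream regions in the genome, and 2 sites were present before *TRX2* and *GPX2*, against 0.95% of all regions. *TSA2*, *CTA1*, *SOD1*, *SOD2* and *AHP1* had 1 site each, and *TSA1*, *CTT1* and *TRR1* had none in this window. The stress response element was present before 8 of the 10, against 34.07% of all regions. *CTT1* and *AHP1* had 3, *TSA1* and *TSA2* had 2, and *TRX2*, *SOD1*, *SOD2* and *GPX2* had 1, while none was found before *CTA1* and *TRR1*. A shorter window had been planned for the motifs. It leaves out the only Yap1 sites of *TSA2* and *AHP1*, which begin 473 and 494 bases before the start codon. It also leaves out the only stress response element of *TRX2*, which begins 430 bases before it. The distal Yap1 site of *GPX2* and the distal elements of *CTT1*, *TSA1*, *TSA2* and *AHP1* fall outside it too. *GPX2* then keeps only its proximal site and *CTT1* only its proximal element. The shares of all regions were not counted for the shorter window. The stretches before *TRX2*, *GPX2* and *CTT1* are shown because these 3 genes hold the most matches to one of the motifs among the mRNAs that differed between the strains in HU. Each is written 5′ to 3′ on the strand of its gene with the motif, or its reverse complement, in capitals. The stretch of *TRX2* is chrVII:913387-913459 on the minus strand, those of *GPX2* are chrII:707096-707132 and chrII:707253-707289 on the plus strand, and those of *CTT1* are chrVII:654241-654290 and chrVII:654486-654520 on the plus strand.
TRX2, Yap1 sites: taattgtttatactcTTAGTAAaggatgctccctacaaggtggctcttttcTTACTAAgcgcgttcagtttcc
GPX2, distal Yap1 site: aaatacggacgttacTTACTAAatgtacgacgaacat
GPX2, proximal Yap1 site: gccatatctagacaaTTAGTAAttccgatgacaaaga
CTT1, distal stress response elements: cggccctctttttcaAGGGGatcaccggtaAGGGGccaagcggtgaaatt
CTT1, proximal stress response element: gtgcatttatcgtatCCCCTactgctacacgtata
The sites of *TRX2* begin 217 and 181 bases before the start codon, those of *GPX2* 417 and 260 bases, and the elements of *CTT1* 378, 363 and 133 bases before it.

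The 10 mRNAs covered most of the range of abundance in the cell. By its mean over the 16 libraries *AHP1* ranked 27th of 7080 genes, *TSA1* ranked 69th and *SOD1* 72nd, whereas *TSA2* ranked 2143rd, *CTT1* 2985th and *CTA1* 6002nd. Together the 10 took 0.457 to 1.46% of the summed FPKM of a library. In untreated WT cells the order of the FPKM levels was *AHP1*, *TSA1*, *SOD1*, *TRX2*, *TRR1*, *SOD2*, *GPX2*, *TSA2*, *CTA1* and *CTT1*, and only *SOD2* and *GPX2*, and *TSA2* and *CTA1*, had replicate values that overlapped with those of their neighbour. The top 4 were *AHP1*, *TSA1*, *SOD1* and *TRX2* in every condition. *SOD1* passed *TSA1* at 4 h in both strains, and at 2 h in WT their replicate values overlapped. In *lsm1∆* cells *GPX2* stood above *SOD2* at 1 and 2 h, an order not seen in WT, and the level of *CTT1* overlapped with that of *TSA2* in untreated cells and at 1 and 4 h. *CTA1* was the least abundant of the 10 in every condition except untreated WT, where *CTT1* lay below it. Cufflinks lists an interval beside each FPKM, and its half-width reached 26.1% of the value for *TSA2*, 18.9% for *CTT1* and 16.6% for *CTA1*, against 1.56 to 7.92% for the widest interval of each of the other 7.

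**Figure D1:**
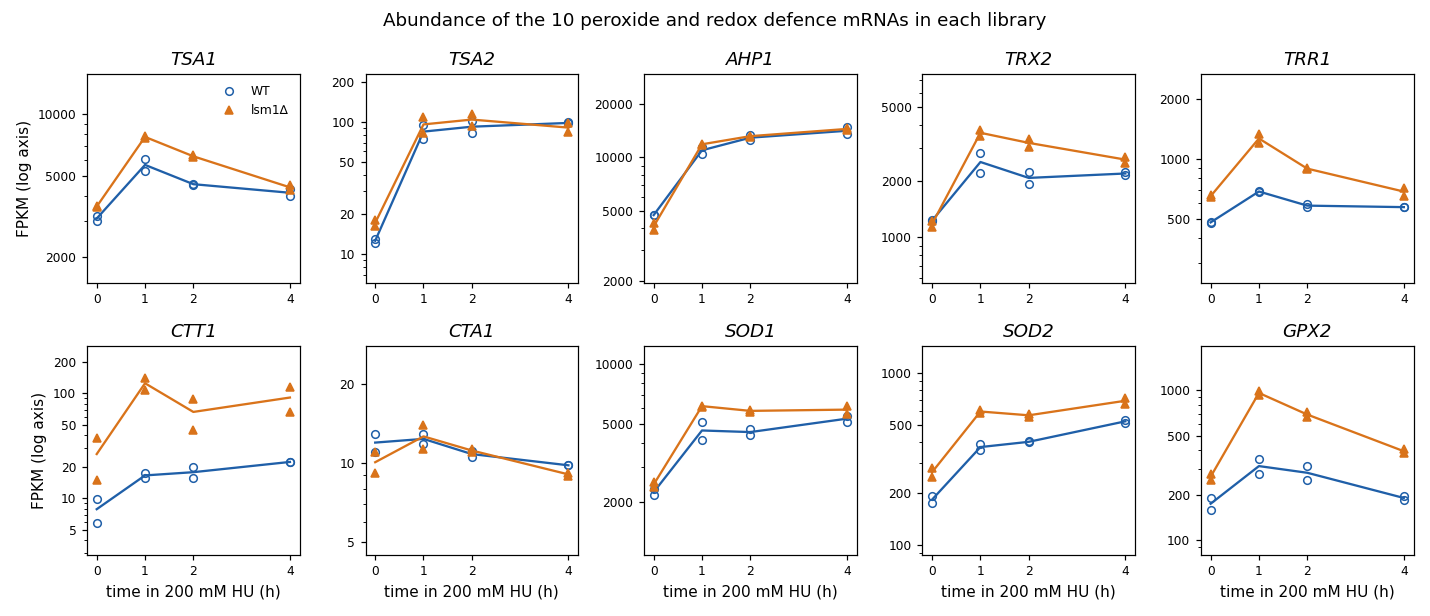
FPKM of each of the 10 mRNAs (vertical axes, logarithmic, with a different range in each panel) against the time in 200 mM HU in hours (horizontal axes), with open circles for WT libraries, filled triangles for *lsm1∆* libraries and lines through the means of 2 replicates. *TSA2* rose from 12.2 and 13.1 FPKM in untreated WT cells to between 74.8 and 102.2 FPKM in HU, and the *lsm1∆* libraries of *CTT1* and *GPX2* lay above the WT libraries at every time.

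The HU comparisons ask which of these mRNAs differed in HU from the untreated cells, which were sampled before HU was added. No untreated cells were sampled at 1, 2 or 4 h. Effects of HU, of time in culture and of the S-phase arrest that HU causes therefore cannot be told apart. In WT cells 8 of the 10 mRNAs were higher than in untreated cells at each of 1, 2 and 4 h, and none was lower. The largest rise was in *TSA2*, the paralogue of *TSA1* known to be induced by stress, at 6.70-fold at 1 h and 7.79-fold at 4 h. *AHP1* rose 2.33-fold by 1 h and 2.74-fold by 2 h, and *SOD1* and *SOD2* rose 2.05-fold and 2.02-fold by 1 h. *CTA1*, the peroxisomal catalase, was not called at any time. In *lsm1∆* cells 9, 9 and 8 mRNAs were higher at 1, 2 and 4 h, again with none lower, and *CTT1*, the cytosolic catalase, rose 4.73-fold at 1 h. Of all tested genes 36.0, 31.1 and 22.0% were called higher and 8.36, 11.9 and 26.0% lower in WT at 1, 2 and 4 h, and 25.0, 38.6 and 43.6% higher and 9.40, 10.1 and 14.7% lower in *lsm1∆*. The median log2 change of the 10 was 1.02, 0.88 and 1.04 in WT, beside 0.22, 0.16 and -0.03 over all tested genes, and 1.43, 1.30 and 1.20 in *lsm1∆*, beside 0.14, 0.23 and 0.27.

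On the centred scale 8, 7 and 8 of the 10 were higher in WT, beside 14.6, 18.3 and 23.9% of all genes higher and 17.6, 20.5 and 24.7% lower. *CTA1* was then called lower at 2 h, at -0.31, and *TRR1* at 2 h, at 0.09, was not called. In *lsm1∆* the centred counts were 9, 8 and 6 higher, beside 13.9, 18.9 and 23.1% of all genes higher and 15.5, 20.9 and 27.5% lower, with *CTA1* (-0.45) and *TRR1* (-0.24) called lower at 4 h. The 3 HU times of a strain were compared with the same 2 untreated libraries, so their changes are not independent of each other.

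The 3 peroxiredoxins took different courses. *TSA1*, the main cytosolic peroxiredoxin, was at 3013 and 3184 FPKM in untreated WT cells, 6040 and 5273 FPKM at 1 h, 4586 and 4525 FPKM at 2 h and 3972 and 4301 FPKM at 4 h. In *lsm1∆* cells its FPKM were 3533 and 3555, then 7833 and 7657, 6292 and 6168, and 4256 and 4537. All HU libraries of a strain lay above its untreated libraries, with the highest values at 1 h. The log2 change was 0.87 ± 0.07 (SE, limma, 2 libraries a group), 0.56 and 0.42 in WT at 1, 2 and 4 h (adjusted p = 9.2e-06, 0.00015 and 0.00073) and 1.13, 0.81 and 0.31 in *lsm1∆* (adjusted p = 7.7e-06, 1.1e-05 and 0.0033). On the centred scale the *lsm1∆* value at 4 h was -8e-04, so that rise was not seen there.

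*TSA2* was at 13.1 and 12.2 FPKM in untreated WT cells and at 94.5 and 74.8, 102.2 and 82.2, and 97.7 and 99.3 FPKM at 1, 2 and 4 h. Its *lsm1∆* values were 16.4 and 18.2 FPKM untreated and 109.7 and 82.3, 115.2 and 93.7, and 83.9 and 97.6 FPKM in HU. Unlike *TSA1* it stayed high to 4 h, with log2 changes of 2.64, 2.77 and 2.87 (SE 0.17) in WT and 2.40, 2.52 and 2.33 in *lsm1∆*, all called. The coding sequences of *TSA1* and *TSA2*, of 591 bases each, differ at 127 bases (78.51% identical), and none of the 542 stretches of 50 bases in either, the length of the reads, occurs elsewhere in the genome with up to 2 mismatches, nor do those of the other 8 genes. *AHP1*, a peroxiredoxin with a preference for alkyl hydroperoxides, was at 4700 and 4740 FPKM in untreated WT cells and at 11519 and 10435, 13397 and 12477, and 14794 and 13517 FPKM in HU. In *lsm1∆* it was at 3910 and 4241 FPKM, then 11815 and 11923, 13258 and 13131, and 14298 and 14697 FPKM. It had the most abundant mRNA of the 10 throughout, and its log2 change was 1.22, 1.45 and 1.58 (SE 0.07) in WT and 1.54, 1.70 and 1.83 in *lsm1∆*, all called.

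The thioredoxin and its reductase rose by 1 h in both strains. *TRX2*, the cytosolic thioredoxin known to be induced by peroxide, was at 1221 and 1235 FPKM in untreated WT cells, 2853 and 2221 FPKM at 1 h, 2232 and 1934 FPKM at 2 h and 2162 and 2238 FPKM at 4 h. In *lsm1∆* it was at 1224 and 1136 FPKM, then 3769 and 3518, 3373 and 3059, and 2512 and 2715 FPKM. The untreated libraries of both strains lay within 1136 to 1235 FPKM, and every HU library lay above them. Its log2 change was 1.03 ± 0.11 (SE), 0.76 and 0.84 in WT and 1.63, 1.45 and 1.15 in *lsm1∆*, all called. *TRR1*, the cytosolic thioredoxin reductase, was at 482 and 480 FPKM in untreated WT cells and 684 and 689, 593 and 574, and 574 and 572 FPKM in HU. In *lsm1∆* it was at 642 and 658 FPKM, then 1202 and 1325, 898 and 888, and 655 and 717 FPKM. At 4 h its *lsm1∆* values overlapped with the untreated values (log2 change 0.08, adjusted p = 0.33), and -0.24 on the centred scale was called lower. The other changes of *TRR1* were 0.51, 0.28 and 0.25 in WT and 0.96 and 0.46 in *lsm1∆* at 1 and 2 h, all called higher.

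The catalases were the only 2 of the 10 that were not called in WT at 1 and 2 h. *CTT1* was at 9.97 and 5.82 FPKM in untreated WT cells, 17.6 and 15.5 FPKM at 1 h, 15.8 and 19.8 FPKM at 2 h and 22.1 and 22.5 FPKM at 4 h. In *lsm1∆* it was at 15.1 and 37.8 FPKM untreated, 108.9 and 141.2 FPKM at 1 h, 44.5 and 88.9 FPKM at 2 h and 66.9 and 116.0 FPKM at 4 h. Its HU libraries lay above the untreated libraries of the same strain at every time, yet replicates differed by up to 1.27 on the log2 scale (untreated *lsm1∆*). The Cufflinks intervals of the untreated *lsm1∆* replicates were 13.4 to 16.9 and 34.9 to 40.7 FPKM, so their difference exceeded the interval listed for each value.

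The log2 change of *CTT1* was 1.02 ± 0.45 (SE, adjusted p = 0.091), 1.11 (adjusted p = 0.071) and 1.43 (adjusted p = 0.024) in WT and 2.32, 1.35 and 1.83 (adjusted p = 0.0030, 0.030 and 0.0055) in *lsm1∆*. The call in WT at 4 h was lost without replicate 2 of untreated WT (1.08, adjusted p = 0.148) or without either replicate at 4 h (1.44 and 1.41, adjusted p = 0.080 and 0.084). In *lsm1∆* the call at 2 h was lost without replicate 1 of the untreated cells (0.72, adjusted p = 0.236), without replicate 2 at 2 h (0.86, adjusted p = 0.213) and on the centred scale (1.09, adjusted p = 0.080), and the call at 4 h was lost without replicate 1 of the untreated cells (1.20, adjusted p = 0.051). *CTA1*, which is known to be repressed by glucose, ranged only from 8.97 to 13.97 FPKM over the 16 libraries. Its log2 changes in HU lay between -0.26 and 0.30, none of them called on the deposited scale with all libraries. In *lsm1∆* at 1 h it was called higher without replicate 2 of the untreated cells (0.42, adjusted p = 0.043) or without replicate 1 at 1 h (0.44, adjusted p = 0.034).

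The superoxide dismutases rose and stayed high. *SOD1*, the cytosolic copper and zinc enzyme, was at 2331 and 2169 FPKM in untreated WT cells and 5108 and 4129, 4711 and 4357, and 5474 and 5129 FPKM in HU. In *lsm1∆* its FPKM were 2395 and 2523, then 6108 and 6162, 5754 and 5857, and 5604 and 6179. *SOD2*, the mitochondrial manganese enzyme, was at 192 and 176 FPKM in untreated WT cells and 386 and 358, 401 and 397, and 535 and 516 FPKM in HU, and at 251 and 281, 589 and 610, 559 and 580, and 664 and 720 FPKM in *lsm1∆*. No HU library of either gene overlapped with the untreated libraries of its strain. The log2 changes of *SOD1* were 1.03, 1.01 and 1.24 (SE 0.10) in WT and 1.32, 1.24 and 1.26 in *lsm1∆*, and those of *SOD2* were 1.01, 1.11 and 1.51 (SE 0.08) in WT and 1.17, 1.10 and 1.38 in *lsm1∆*, all called.

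*GPX2*, a glutathione peroxidase that acts on lipid hydroperoxides, rose by 1 h and was lower again at 4 h. It was at 160 and 190 FPKM in untreated WT cells, 347 and 278 FPKM at 1 h, 311 and 253 FPKM at 2 h and 197 and 186 FPKM at 4 h. In *lsm1∆* it was at 253 and 278 FPKM, then 989 and 936, 720 and 662, and 381 and 405 FPKM. The WT values at 4 h overlapped with the untreated values, whereas all HU libraries of *lsm1∆* lay above its untreated libraries. The log2 change was 0.83 ± 0.13 (SE, adjusted p = 0.00072), 0.68 (0.0022) and 0.13 (0.44) in WT and 1.86, 1.38 and 0.57 in *lsm1∆* (adjusted p = 1.5e-05, 2.3e-05 and 0.0041). On the centred scale the value in *lsm1∆* at 4 h, 0.25, was not called (adjusted p = 0.12).

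**Figure D2:**
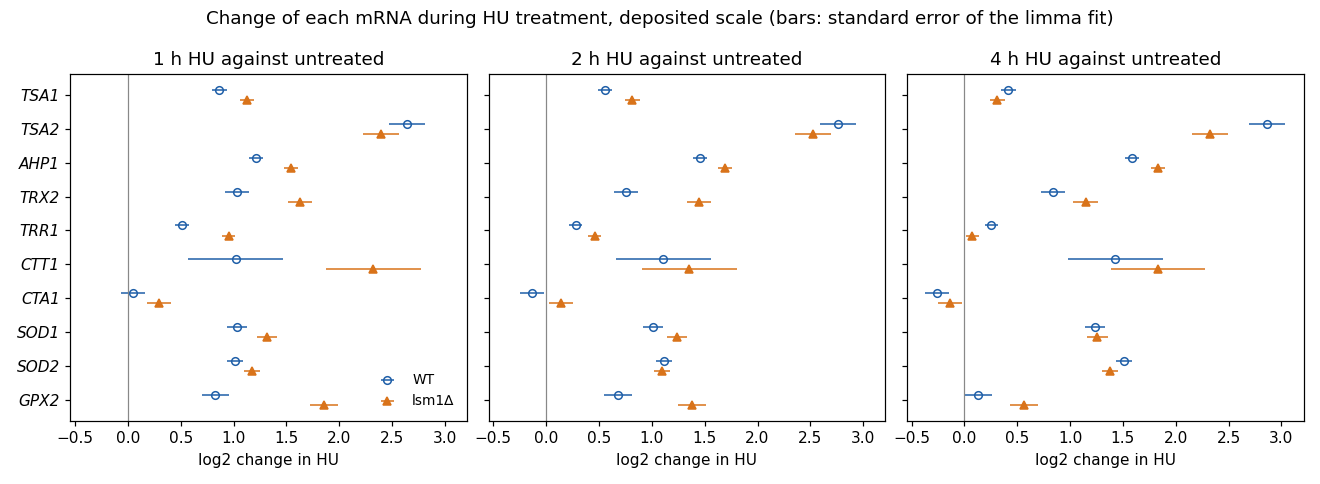
Log2 change of each mRNA (horizontal axes, log2(FPKM + 1), deposited scale) at 1, 2 and 4 h of HU against untreated cells of the same strain, with open circles for WT, filled triangles for *lsm1∆* and bars for the standard error of the limma fit. *TSA2* had the largest change in every panel, between 2.33 and 2.87, while *GPX2* fell from 0.83 at 1 h to 0.13 at 4 h in WT and from 1.86 to 0.57 in *lsm1∆*.

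The courses within HU were compared directly as 4 h against 1 h, a comparison added after the values had been seen. In WT 5 of the 10 were called: *TSA1* (-0.45), *GPX2* (-0.70) and *TRR1* (-0.26) were lower at 4 h, and *SOD2* (0.50) and *AHP1* (0.37) were higher, beside 38.1% of all genes lower and 5.26% higher. In *lsm1∆* 6 were called: *TSA1* (-0.82), *GPX2* (-1.29), *TRR1* (-0.88), *TRX2* (-0.48) and *CTA1* (-0.43) were lower and *AHP1* (0.29) was higher, beside 10.7% of all genes lower and 23.8% higher. The median change over all genes was -0.24 in WT and 0.12 in *lsm1∆*. With centring, *TSA1* (-0.18) and *TRR1* (0.01) were no longer called in WT, and *SOD1* (0.48), *TSA2* (0.49), *SOD2* and *AHP1* were higher, beside 13.2% of all genes higher and 11.0% lower. In *lsm1∆* the higher *AHP1* (0.14) was then not called. The fall of *GPX2* was called in both strains on both scales. Single libraries decided several of the smaller changes. The call of *TRX2* in *lsm1∆* was lost without replicate 1 at 1 h (-0.43, adjusted p = 0.057) or replicate 1 at 4 h (-0.42, adjusted p = 0.067), and that of *AHP1* without replicate 2 at 4 h (0.27, adjusted p = 0.051). The call of *CTA1* in *lsm1∆* was lost without replicate 2 at 1 h (-0.29, adjusted p = 0.119) or either replicate at 4 h (-0.45 and -0.42, adjusted p = 0.060 and 0.074). In WT, *TRX2* was called lower without replicate 2 at 1 h (-0.38) and *SOD1* higher without replicate 1 at 1 h (0.36).

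The strain comparisons ask which of the mRNAs differ in cells without Lsm1. In untreated *lsm1∆* cells 4 of the 10 mRNAs were higher than in WT, *CTT1* (3.35-fold), *GPX2* (1.51-fold), *SOD2* (1.45-fold) and *TRR1* (1.35-fold), and *AHP1* was lower (0.863-fold). After 1 and 2 h of HU, 7 were higher and none lower, with *CTT1* at 7.55-fold and *GPX2* at 3.08-fold at 1 h, joined by *TRX2*, *TSA1* and *SOD1*. At 4 h the same 4 as in untreated cells were called higher. *CTA1* and *TSA2* were called at no time on the deposited scale. Of all tested genes, 22.2, 23.2, 32.0 and 49.8% were called higher and 6.32, 13.8, 7.75 and 6.29% lower in untreated cells and at 1, 2 and 4 h. The median log2 ratio of the 10 was 0.31, 0.49, 0.48 and 0.20, beside 0.13, 0.04, 0.17 and 0.37 over all tested genes, so that at 4 h it lay below the median of all genes. With centring, 4, 7, 6 and 2 were higher and 1, 0, 0 and 5 lower, beside 16.3, 23.2, 20.6 and 21.9% of all genes higher and 9.42, 13.9, 15.8 and 23.5% lower. The count at 1 h was 7 on both scales.

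*CTT1* had the largest ratio of the 10 at every time. Its *lsm1∆* libraries lay above the WT libraries in untreated cells and at 1, 2 and 4 h, with log2 ratios of 1.53 ± 0.45 (SE), 2.83, 1.78 and 1.94 (adjusted p = 0.029, 0.00098, 0.0099 and 0.0041). In untreated cells the call rested on single libraries: without replicate 2 of WT the ratio was 1.19 (adjusted p = 0.173) and without replicate 2 of *lsm1∆* it was 0.90 (adjusted p = 0.195). At 2 h it was lost without replicate 1 of WT (1.62, adjusted p = 0.056) and without replicate 2 of *lsm1∆* (1.28, adjusted p = 0.087). The calls at 1 and 4 h held without any single library. In replicate 2 of the untreated *lsm1∆* cells, where *CTT1* was highest, 9 of the 10 mRNAs lay above replicate 1 (median log2 difference 0.13). Of 22 general stress genes 10 did (median -0.07), and the median over all tested genes was 0.018. The part of that library in the ratio beyond its removal was not tested.

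*GPX2* was higher in *lsm1∆* by 0.60 ± 0.13 (SE), 1.63, 1.30 and 1.03 on the log2 scale in untreated cells and at 1, 2 and 4 h (adjusted p = 0.0077, 3.0e-05, 5.2e-05 and 8.5e-05). Its libraries of the 2 strains did not overlap at any time, and the 4 ratios were also called on the centred scale, at 0.51, 1.62, 1.12 and 0.61. In untreated cells the adjusted p rose to 0.061 without replicate 1 of WT (0.47) and to 0.052 without replicate 2 of *lsm1∆* (0.53). *TRR1* was higher by 0.43 ± 0.06 (SE), 0.88, 0.61 and 0.26 (adjusted p = 0.00088, 2.4e-05, 5.0e-05 and 0.0052), and *SOD2* by 0.53 ± 0.08 (SE), 0.69, 0.51 and 0.40 (adjusted p = 0.00093, 0.00015, 0.00050 and 0.0013). For both genes every *lsm1∆* library lay above every WT library of the same time. At 4 h the centred values were -0.17 for *TRR1* and -0.03 for *SOD2*, neither called, so their direction at 4 h depended on the scale. The call of *TRR1* at 4 h was also lost without replicate 2 of *lsm1∆* (0.19, adjusted p = 0.054).

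*TRX2* was called between strains at 1 and 2 h of HU only. Its log2 ratio was -0.06 ± 0.11 (SE, adjusted p = 0.75) in untreated cells, where the replicates overlapped, and 0.53, 0.63 and 0.25 at 1, 2 and 4 h (adjusted p = 0.0053, 0.0017 and 0.094), with -0.18 at 4 h on the centred scale, and the difference of its HU response between strains was not called at 1, 2 or 4 h (adjusted p = 0.12, 0.067 and 0.19). *TSA1* had ratios of 0.19, 0.46, 0.45 and 0.09, and *SOD1* of 0.13, 0.42, 0.36 and 0.15, each called at 1 and 2 h. In a limma fit of only the libraries compared, *TRX2*, *TSA1* and *SOD1* lost their calls at 1 h (adjusted p = 0.12, 0.077 and 0.136). *TRX2* was then called at 4 h (adjusted p = 0.04975). The call of *SOD1* at 2 h was lost on the centred scale (0.19, adjusted p = 0.11), without replicate 2 of WT (0.30, adjusted p = 0.094) and without either replicate of *lsm1∆* (0.37 and 0.34, adjusted p = 0.051 and 0.064). *AHP1* was lower by 0.21 ± 0.07 (SE, adjusted p = 0.037) in untreated *lsm1∆* cells, and its ratios of 0.11, 0.03 and 0.04 in HU were not called. That call was lost without either replicate of WT (-0.22 and -0.21, adjusted p = 0.110 and 0.139) or without replicate 1 of *lsm1∆* (-0.15, adjusted p = 0.201). *TSA2* had ratios of 0.42, 0.17, 0.18 and -0.12, and *CTA1* of -0.23, 0.02, 0.04 and -0.10. At 4 h on the centred scale *AHP1* (-0.39), *TSA1* (-0.34), *SOD1* (-0.27), *TSA2* (-0.55) and *CTA1* (-0.53) were called lower, and *CTT1* (1.51) and *GPX2* (0.61) higher.

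**Figure D3:**
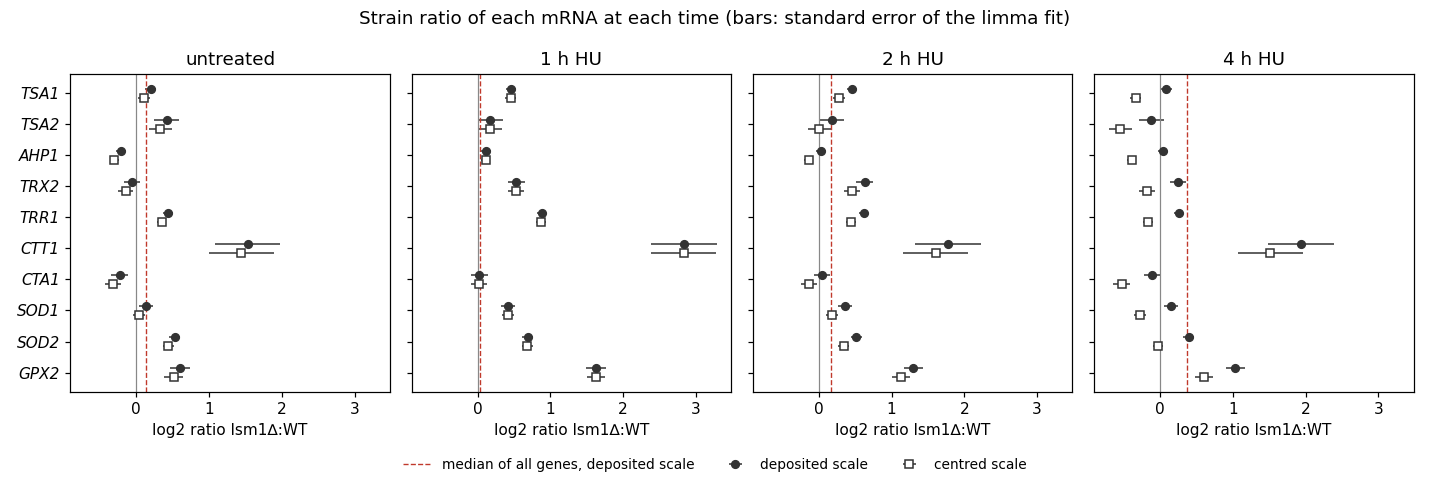
Log2 ratio of *lsm1∆* to WT for each mRNA (horizontal axes, log2(FPKM + 1)) in untreated cells and at 1, 2 and 4 h of HU, with filled circles for the deposited scale, open squares for the centred scale, bars for the standard error of the limma fit and a dashed line at the median of all tested genes on the deposited scale. *CTT1* and *GPX2* lay to the right of that median in every panel, and at 4 h the median itself was at 0.37, above 7 of the other 8 mRNAs.

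Whether the change in HU differed between strains was tested as an interaction. None of the 10 was called at 1, 2 or 4 h by limma with adjustment over all genes, beside 0.502, 1.35 and 30.5% of all genes. At an unadjusted p under 0.05 there were 5, 4 and 3 of the 10, beside 15.2, 17.4 and 41.3% of all genes. The largest differences at 1 h were in *CTT1* (1.30 ± 0.63, SE, adjusted p = 0.35), *GPX2* (1.03 ± 0.19, adjusted p = 0.051), *TRX2* (0.59 ± 0.16, adjusted p = 0.12) and *TRR1* (0.44 ± 0.09, adjusted p = 0.062). *GPX2* and *TRR1* were called at 1 h on the centred scale, at 1.11 and 0.53 (adjusted p = 0.036 and 0.043), beside 0.659% of all genes. With centring, *TSA1* (-0.44), *TSA2* (-0.88), *SOD2* (-0.47) and *TRR1* (-0.51) were called at 4 h, beside 14.2% of all genes, with a lower log2 change in *lsm1∆* than in WT.

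The regulators and relatives of these enzymes were followed in the same fit. The mRNA of *YAP1*, the peroxide-responsive transcription factor, rose in WT from 56.5 and 54.7 FPKM to 104.7 and 114.4 FPKM at 1 h and was at 87.8 and 76.3 FPKM at 4 h, and in *lsm1∆* from 51.1 and 49.3 FPKM to 80.4 and 90.7 FPKM at 1 h and 105.5 and 111.5 FPKM at 4 h. It was lower in *lsm1∆* than in WT at 1 h (-0.35, adjusted p = 0.012) and higher at 4 h (0.40, adjusted p = 0.0034), although the centred value at 4 h was -0.02 (adjusted p = 0.85). *SKN7* was lower in HU at 4 h in both strains (-0.54 and -0.43), and *MSN4* was higher at 1, 2 and 4 h in WT (0.68, 0.83 and 0.70). In *lsm1∆* *MSN4* was not called at 1 h (-0.06, adjusted p = 0.64) and was higher at 2 and 4 h (0.36 and 0.56). The value at 2 h was 0.09 and not called on the centred scale. The response of *MSN4* at 1 h differed between strains by -0.74 (adjusted p = 0.051, not called). On the centred scale that difference, -0.65, was called lower (adjusted p = 0.048). *MSN2*, *SKN7* and *MSN4* were lower in *lsm1∆* than in WT at 1 h, by 0.38, 0.40 and 0.31 on the log2 scale (adjusted p = 0.0013, 0.028 and 0.027). *MSN4* was higher in *lsm1∆* in untreated cells (0.43, adjusted p = 0.0081) and at 4 h (0.29, adjusted p = 0.026), the latter at -0.14 and not called on the centred scale. At 2 h *MSN2* was lower in *lsm1∆* on the deposited (-0.24) and the centred scale (-0.41), and *SKN7* on the centred scale only (-0.42). *MSN2* and *SKN7* at 4 h were called lower on the centred scale only (-0.41 and -0.45). In HU, *MSN2* in WT was higher at 1 and 2 h (0.42 and 0.27) and lower at 4 h (-0.21), but was not called with centring. In *lsm1∆* its change was called only at 4 h on the centred scale (-0.39).

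Relatives of the 10 did not all move with them. *TRX1*, the paralogue of *TRX2*, was at 785 to 1171 FPKM in all 16 libraries and was called in no comparison of HU with untreated cells, with log2 changes from -0.07 to 0.28. *PRX1*, the mitochondrial peroxiredoxin, rose by 1.75, 2.06 and 2.32 in WT and 1.83, 1.88 and 2.11 in *lsm1∆*. *HYR1*, a glutathione peroxidase that relays peroxide to Yap1, rose by 1.00, 0.93 and 0.92 in WT and 0.66, 0.87 and 0.96 in *lsm1∆*. *TRR2*, the mitochondrial thioredoxin reductase, and *DOT5*, a nuclear thiol peroxidase, were called higher at every HU time in both strains, by 0.52 to 1.19, except that *TRR2* in WT at 1 h was not called on the centred scale (0.28, adjusted p = 0.055). *GPX1*, the relative of *GPX2*, was called in HU only in *lsm1∆* at 4 h (0.88), where it was also higher than in WT (1.06). Neither was called on the centred scale (0.57 and 0.63, adjusted p = 0.078 and 0.061). Other relatives were also higher in *lsm1∆* than in WT: *PRX1* untreated and at 1 h (0.49 and 0.57), *DOT5* at 2 and 4 h (0.40 and 0.58) and *HYR1* at 4 h (0.25). Of these ratios only *PRX1* at 1 h (0.56) and *DOT5* at 2 h (0.22) were called on the centred scale. *TRX1* was called lower in *lsm1∆* at 4 h with centring only (-0.27).

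A list of 34 other redox genes (glutaredoxins, glutathione synthesis and transfer, methionine sulfoxide reductases, the pentose phosphate pathway and regulators) had 22, 23 and 18 members higher and 1, 1 and 4 lower in WT at 1, 2 and 4 h, and 22, 25 and 28 higher and 2, 1 and 2 lower in *lsm1∆*. Its median log2 change was 0.58, 0.62 and 0.37 in WT and 0.58, 0.74 and 0.87 in *lsm1∆*. *SRX1*, the sulfiredoxin that repairs overoxidized peroxiredoxin, had the highest value in WT at 4 h (2.79). Among all genes 36.0, 31.1 and 22.0% were higher in WT and 25.0, 38.6 and 43.6% in *lsm1∆*. The medians over all genes were 0.22, 0.16 and -0.03 in WT and 0.14, 0.23 and 0.27 in *lsm1∆*. With centring 17, 20 and 20 of the 34 were higher and 4, 3 and 4 lower in WT. In *lsm1∆* 18, 20 and 21 were higher and 5, 3 and 4 lower. Among all genes 14.6, 18.3 and 23.9% were then higher in WT and 13.9, 18.9 and 23.1% in *lsm1∆*. Between strains 7, 10, 14 and 22 of the 34 were higher and 2, 4, 2 and 2 lower in untreated cells and at 1, 2 and 4 h, with *OYE3*, an NADPH dehydrogenase, the highest at each time (1.98, 1.75, 1.39 and 1.57). Of all genes 22.2, 23.2, 32.0 and 49.8% were higher, so in untreated cells the share of this list lay near that of all genes. With centring the counts at 4 h were 10 higher and 9 lower, beside 21.9 and 23.5% of all genes.

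Of 22 genes of the general stress response, to which *CTT1* is usually counted, 19, 19 and 20 were higher in WT and 21, 22 and 22 in *lsm1∆* at 1, 2 and 4 h, none lower, with medians of 1.61, 1.63 and 1.69 and of 1.85, 1.84 and 1.93. Between strains 11, 14, 13 and 14 of them were higher and 1, 1, 1 and 0 lower, with medians of 0.54, 0.88, 0.83 and 0.79. Among all genes 22.2, 23.2, 32.0 and 49.8% were higher and 6.32, 13.8, 7.75 and 6.29% lower between strains. The medians over all genes were 0.13, 0.04, 0.17 and 0.37. On the centred scale 8, 14, 11 and 5 of the 22 were higher and 1 was lower each time. With centring 16.3, 23.2, 20.6 and 21.9% of all genes were higher and 9.42, 13.9, 15.8 and 23.5% lower. The centred share of the list called higher at 4 h thus lay near that of all genes. Replicates also differed in this list. In untreated WT 21 of the 22 were lower in replicate 2, where *CTT1* was lowest, than in replicate 1 (median -0.53). The median difference over all tested genes was -0.031 there. Of 16 genes of peroxisomal fatty acid oxidation, the pathway whose peroxide *CTA1* is known to remove, 8, 9 and 6 were higher and 0, 1 and 2 lower in WT and 4, 6 and 9 higher and 0, 0 and 1 lower in *lsm1∆*, with medians from 0.09 to 0.43. Of all genes 36.0, 31.1 and 22.0% were higher and 8.36, 11.9 and 26.0% lower in WT. In *lsm1∆* 25.0, 38.6 and 43.6% were higher and 9.40, 10.1 and 14.7% lower. The medians over all genes were 0.22, 0.16 and -0.03 in WT and 0.14, 0.23 and 0.27 in *lsm1∆*. At 1 and 2 h in *lsm1∆* the share of this list thus lay near that of all genes. With centring 2, 5 and 8 of the 16 were higher and 1, 1 and 2 lower in WT. In *lsm1∆* 3, 4 and 4 were higher and 0, 3 and 4 lower. Among all genes 14.6, 18.3 and 23.9% were then higher in WT and 13.9, 18.9 and 23.1% in *lsm1∆*. The centred shares in WT at 1 h and in *lsm1∆* at 4 h lay near those of all genes.

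The 10 profiles were set against each other and against all other genes by Pearson correlation of centred log2(FPKM + 1) over the 16 libraries, which are 8 conditions in duplicate, so that shared condition means fix much of each value. *SOD1*, *AHP1* and *TSA2*, whose mRNAs stayed high to 4 h, correlated at 0.94 to 0.96 with each other. *GPX2* and *TRR1* correlated at 0.88, *TSA1* and *TRR1* at 0.85, and *AHP1* and *TRR1* only at 0.17. *CTA1* correlated at -0.51 to 0.14 with the others. Among genes with a mean of at least 10 FPKM, *INH1*, an inhibitor of the mitochondrial ATPase, lay nearest to *CTT1* (r = 0.94). Next came *FMP16* (0.94) and *HXT7*, a high-affinity hexose transporter (0.94). Whether reads of *HXT7* or of the other neighbours named here also match elsewhere in the genome was not tested. Nearest to *TSA1* were *KAR2*, a chaperone of the endoplasmic reticulum (0.95), *MCD4*, an enzyme of anchor lipid synthesis (0.93), and *CPT1*, a cholinephosphotransferase (0.93). Those nearest to *TRX2* were the uncharacterized loci YDL023C (0.96), YCL041C (0.94) and YCL042W (0.93). YDL023C shares 257 of its 321 bp with *GPD1*, YCL041C shares 89 of its 495 bp with *PDI1* and YCL042W shares 106 of its 360 bp with *GLK1*, and in libraries without strand the reads of the shared parts cannot be assigned to either gene.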

How the data were processed

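Total RNA of 16 samples was depleted of rRNA and sequenced by the authors from TruSeq v2 libraries, which do not keep the strand. The authors aligned the reads to sacCer3 with TopHat2 and estimated FPKM per gene with Cufflinks, and the deposited FPKM are the unit used here. The tables list no read counts, so count tests were not used, and the Cufflinks interval, which covers uncertainty within a library only, gives the precision of a value. The 46 genes with a failed estimate in any library were left out, which left 7080. Of these, 6977 reached 1 FPKM in 2 or more libraries, and their log2(FPKM + 1) was fitted with limma 3.58.1 in R 4.3.3 (lmFit with a mean for each of the 8 conditions, eBayes with trend, 8 residual and 1.85 prior degrees of freedom). P-values were adjusted by Benjamini-Hochberg over all tested genes within each of 15 comparisons and called under 0.05. The fit was checked on simulated data with known changes. Motifs and 50-base stretches were searched with Python 3.11.15, numpy 2.4.6 and pandas 2.3.3, and figures were drawn with matplotlib 3.10.9. The window of 500 bases for the motifs was chosen after the values had been seen.

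Alternatives were centred libraries, a pseudocount of 0.1, no filter (7060 genes), a condition mean of 5 FPKM or more throughout (6199 genes), protein-coding genes only (6597), a stricter adjusted p (0.01), the replicate number as a block, a fit without the libraries of other conditions and the removal of each single library. Genes named beside the 10 were the regulators *YAP1*, *SKN7*, *MSN2* and *MSN4* and the relatives *TRX1*, *TRR2*, *GPX1*, *HYR1*, *PRX1* and *DOT5*. The controls were *LSM1*, *HUG1* and *RNR3*. Also named were the 3 genes nearest in profile to *CTT1*, *TRX2* and *TSA1*, and the extremes of each list. The genes, lists and tests were chosen with earlier results of these data known, so the lists carry no test. The authors' own comparisons were not used.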

Additional observations from a re-analysis of the deposited data

How the results depend on the processing

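Over 15 comparisons, the log2 ratios of the 10 mRNAs kept their direction and their side of the threshold in 150 of 150 cases without a filter on low values, 149 with a pseudocount of 0.1, 148 at 5 FPKM, 148 with protein-coding genes only and 144 at an adjusted p under 0.01. With only the libraries compared it was 131 of 150 (17 calls lost, 2 gained), all in the same direction. On the centred scale 18 of 150 changed sign, 8 of them called in either fit and 10 called in neither, and 6 other calls were lost and 12 gained. Leaving out 1 library lost 25 calls of 720 cases and gained 4, and 21 ratios that were called in neither fit changed sign. The tables list no read counts, so depth limits could be read only from the Cufflinks intervals, which were widest for *TSA2*, *CTT1* and *CTA1*.

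Counts of called mRNAs that moved by over 1.5 times were as follows. In untreated cells the 5 strain differences became 1 with only the libraries compared and 3 at an adjusted p under 0.01. Some of the 5 calls were also lost with 1 library left out. At 1 h the 7 became 4 with only the libraries compared, and at 4 h the 4 became 7 on the centred scale. The 5 changes of WT at 4 h against 1 h became 1 with only the libraries compared. For the interaction at 1 h the count of 0 became 2 on the centred scale, 1 with a pseudocount of 0.1, 1 at 5 FPKM and 2 with protein-coding genes only, and at 4 h it became 4 on the centred scale and 1 with only the libraries compared. The 8 called ratios that changed sign on the centred scale were *TSA1* (-0.34), *SOD1* (-0.27), *SOD2* (-0.028), *AHP1* (-0.39) and *TRR1* (-0.17) between strains at 4 h, *TSA1* (-8e-04) and *TRR1* (-0.24) in *lsm1∆* at 4 h against untreated, and *TRR1* in WT at 4 h against 1 h (0.0098). Centring subtracts the shift of the median gene, and the cause of the other moves was not tested.

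The replicate numbers did not pair the libraries: of 28 pairs of conditions 8 had deviations that correlated at over 0.1 and 5 at under -0.1, from -0.21 to 0.23. With the replicate number as a block, 147 of 150 log2 ratios kept their call and 3 gained one, which made 2 interactions at 1 h and 1 at 2 h.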
